A study of Mus musculus with 15 samples.

Results

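The lungs of 3 mice fed 2500 ppm permethrin were compared with those of 3 mice on the control diet, 6 of the 15 arrays in the series. The members are all arrays whose titles name one of these 2 diets. Permethrin is a synthetic pyrethroid insecticide that holds voltage-gated sodium channels open. All mice of the series were female Crlj:CD1(ICR) animals, an outbred stock, labelled as 11 weeks old, and took powdered food and water freely, with the diets given for 7 days. The control food held 0 ppm permethrin, and the other mice, 3 per diet, received 20, 500 or 5000 ppm. Each array held the RNA of 1 mouse, labelled as a biological replicate, and the outbred stock means that mice also differed in genotype. Levels are given as log2 of the processed array signal after the array's own 75th percentile over 56605 probes was set to 0, so a difference of 1 is a doubling. Of these probes 42072 were well above background on all arrays of either diet and were reduced to 33520 features, 18939 of them with a gene symbol.

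The label of the tissue matched its defining markers. The club cell secretoglobin Scgb1a1 (9.41 to 10.11 over the 6 mice), the alveolar type 2 surfactant gene Sftpc (9.16 to 9.61) and the alveolar type 1 receptor gene Ager (8.18 to 8.91) each lay far above the 75th percentile of every array. In none of them did the diets separate. The differences were 0.17 ± 0.20 (SE), -0.03 ± 0.15 and 0.16 ± 0.21, and each changed sign with the processing. In lung homogenate, fewer cells of a type and less RNA per cell cannot be told apart.

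Between 70.7% and 87.0% of probes were well above background on an array, and no spot was saturated. All 3 control arrays lay on slide 1 and all 3 arrays of 2500 ppm on slide 2, so that slide and diet cannot be told apart in this comparison. The 5000 ppm arrays shared slide 2, where 500 ppm mouse 3 also lay. The array of 2500 ppm mouse 3 stood apart. Its file carries an extraction status of 1, its replicate spots varied by a median of 15.33% against 5.15% to 7.59% on the other arrays, and 274 of its spots were marked as outliers against 104 to 145. It lay above all controls for 13974 features, where mice 1 and 2 did so for 8773 and 9042. The array of 500 ppm mouse 3, which makes 500 ppm the only diet on both slides, lay farthest out of all 15 on the first principal component (153.2, against 63.6 for 2500 ppm mouse 3), also has an extraction status of 1, and took the lowest array weight (0.144). Every value from a fit with slide as a fixed block rests on it. Control mouse 1 and 20 ppm mouse 1 lay apart on the second principal component (18.6% of variance). Many results, though not all, are given with and without these arrays.

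Cells meet electrophilic chemicals and oxidants with a shared set of enzymes. At rest the adaptor Keap1 has the transcription factor Nrf2 degraded, and modification of Keap1 by an electrophile lets Nrf2 enter the nucleus, where it binds antioxidant response elements. Its targets reduce quinones, conjugate glutathione and regenerate thioredoxin. The nuclear receptors CAR and PXR drive genes of drug metabolism, and the aryl hydrocarbon receptor induces Cyp1a1 and some of the same genes as Nrf2. The club cells of the mouse airway are rich in such enzymes.

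The promoters of Srxn1, Txnrd1 and Nqo1 are shown because these genes belong to the Nrf2 list described next. The sequences are RefSeq promoters of GRCm38.p6, windows of 300 bases around the start site, read 5′ to 3′ on the strand of the gene. Capitals mark the letters TGACNNNGC, the core of the antioxidant response element, read on the opposite strand. Srxn1 lies on the plus strand (chr2:152105274-152105573), the Txnrd1 promoter with a match is the second of 3 on the plus strand (chr10:82858956-82859255), and Nqo1 lies on the minus strand (chr8:107403156-107403455).
Srxn1: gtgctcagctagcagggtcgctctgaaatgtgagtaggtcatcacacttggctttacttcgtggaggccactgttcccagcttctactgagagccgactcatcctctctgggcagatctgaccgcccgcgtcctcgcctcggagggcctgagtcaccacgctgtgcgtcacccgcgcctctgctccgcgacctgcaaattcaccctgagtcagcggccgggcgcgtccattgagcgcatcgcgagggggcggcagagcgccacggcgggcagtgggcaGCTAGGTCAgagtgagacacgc
Txnrd1: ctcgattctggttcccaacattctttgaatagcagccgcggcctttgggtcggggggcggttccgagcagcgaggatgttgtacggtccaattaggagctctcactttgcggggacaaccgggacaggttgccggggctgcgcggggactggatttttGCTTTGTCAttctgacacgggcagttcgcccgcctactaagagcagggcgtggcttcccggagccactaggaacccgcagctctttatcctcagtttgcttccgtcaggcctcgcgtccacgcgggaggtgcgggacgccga
Nqo1: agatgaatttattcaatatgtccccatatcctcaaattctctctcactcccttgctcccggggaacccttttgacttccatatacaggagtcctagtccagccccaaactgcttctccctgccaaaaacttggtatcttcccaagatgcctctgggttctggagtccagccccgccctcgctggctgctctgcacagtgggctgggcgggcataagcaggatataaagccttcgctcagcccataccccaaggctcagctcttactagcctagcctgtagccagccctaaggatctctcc
The match lay 28 to 36 bases from the start site in Srxn1 and from -92 to -84 in Txnrd1. The Nqo1 window held none, nor did the windows of Gsta2, Gpx2, Aox1 and Lncpint, which says only that the letters are not in these 300 bases. Searched on both strands, 12 of the 38 list members with a promoter held the core (31.6%), where 14.0% of all 27025 symbols did. The 12 were Abcc4, G6pdx, Gclm, Gsta3, Me1, Mgst1, Nfe2l2, Pgd, Prdx1, Srxn1, Txnrd1 and Ugdh. The core was also held by 5 of the 17 glucocorticoid responsive genes with a promoter (29.4%). It was held by 4 of 16 circadian clock genes and by 1 of 8 aryl hydrocarbon receptor targets. A share above that of all symbols was therefore not particular to the Nrf2 list. A match is a description and not a binding site.

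The comparison asked which lung transcripts differed after a week on 2500 ppm permethrin. The genes with the smallest p were the enzymes Nqo1, Aldh3a1, Aox1 and Entpd5 with Lncpint and Stxbp4 on the higher side, and Ltb4r2, Cwc22 and the dim olfactory receptor Olfr1280 on the lower side. The naming rule asked that their 3 treated mice lie beyond all 3 controls. None passed the threshold: in limma 0 of 33520 features (0%) had an adjusted p under 0.05, and the lowest adjusted p was 0.102. Without 2500 ppm mouse 3 the count was 62. Unadjusted, 1903 features (5.68%) were higher and 1022 (3.05%) lower at p under 0.05, 8.73% in all, where 1676 are expected by chance. These counts of genes at 2500 ppm against control were 928 and 992 without control mouse 1, and 825 and 577 with the array median as the scale. All 3 treated mice lay above all controls for 8.95% of features and below them for 4.79%. A difference of at least 1 was found for 258 features (0.77%) and one of at most -1 for 281 (0.838%). The median difference over all features was 0.05.

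**Figure D1:**
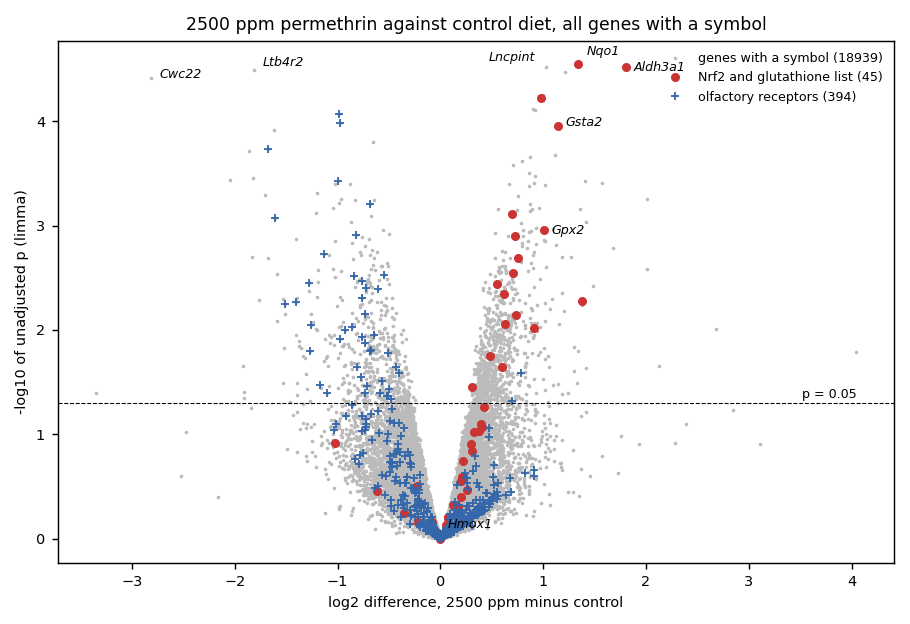
Each point is 1 of 18939 genes with a symbol, by its log2 difference at 2500 ppm minus control (horizontal axis) and the -log10 of its unadjusted limma p (vertical axis), with the 45 measured members of the Nrf2 and glutathione list in red and 394 olfactory receptor genes as blue crosses. The red points with small p all lie right of 0, Nqo1, Aldh3a1 and Gsta2 among them, while Hmox1 lies at 0, and no gene passed after adjustment.

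The quinone reductase Nqo1 had the smallest p of all genes with a symbol. Its level was -1.72, -1.66 and -1.78 in the control mice and -0.16, -0.57 and -0.42 in the 2500 ppm mice. Every treated mouse lay more than 1 unit above every control. The difference was 1.34 ± 0.21 (2.53-fold, adjusted p = 0.102), and with 1 array left out it ran from 1.23 to 1.43. With slide as a fixed block, a fit that rests on the outlying array of 500 ppm mouse 3 alone, it was 1.80 (adjusted p = 0.0077). Aldh3a1, which oxidises aldehydes, measured 2.72, 2.43 and 2.83 in controls and 4.98, 3.89 and 4.53 at 2500 ppm. The lowest treated mouse stood above the highest control. The difference was 1.81 ± 0.29 (3.50-fold, adjusted p = 0.102).

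Glutathione enzymes stood higher too, without passing. Gsta2, a glutathione S-transferase, measured -0.35, -0.41 and -0.42 in controls and 0.44, 0.93 and 0.88 at 2500 ppm. The control mice lay close together and the treated ones were all above 0, a difference of 1.14 ± 0.21 (2.21-fold, adjusted p = 0.109). Gpx2, the glutathione peroxidase of epithelia, measured 2.93, 3.48 and 3.14 against 4.35, 4.39 and 3.83. Mouse 3 was the lowest of the treated mice but still above all controls, and the difference was 1.01 ± 0.24 (adjusted p = 0.183). Gclc, the catalytic subunit of the enzyme that limits glutathione synthesis, measured 3.04, 2.99 and 3.58 against 4.15, 4.21 and 3.46. Here mouse 3 lay below control mouse 3, so the groups overlapped, and the difference was 0.74 ± 0.23 (0.97 without mouse 3).

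Of the thioredoxin branch Txnrd1 and Srxn1 stood higher, while Txn1 and Prdx1 were not past an unadjusted p under 0.05. Txnrd1, the thioredoxin reductase, measured 2.51, 2.67 and 2.85 in controls and 3.58, 3.30 and 3.24 at 2500 ppm. Srxn1, which repairs oxidised peroxiredoxins, measured 2.43, 2.58 and 2.96 against 3.69, 3.05 and 3.34. In both genes the groups did not overlap, though in Srxn1 the gap between control mouse 3 and treated mouse 2 was small. The differences were 0.70 ± 0.16 for Txnrd1 (adjusted p = 0.167) and 0.70 ± 0.19 for Srxn1 (adjusted p = 0.248). The carbonyl reductase Cbr3 differed by 0.76 ± 0.20 (adjusted p = 0.22).

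Other enzymes stood higher as well, also without passing. Aox1, an aldehyde oxidase, measured 1.54, 1.78 and 1.86 in controls and 2.91, 2.54 and 2.65 at 2500 ppm. The treated mice kept clear of the controls by more than 0.5. The difference was 0.98 ± 0.17 (adjusted p = 0.102). Entpd5, a nucleotidase of the endoplasmic reticulum, measured 0.54, 0.39 and 0.82 against 1.52, 1.29 and 1.70, with no overlap and a difference of 0.92 ± 0.16 (adjusted p = 0.102). Pdia2, a protein disulphide isomerase, was 0.87 ± 0.17 higher (adjusted p = 0.131) and overlapped no control.

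**Figure D2:**
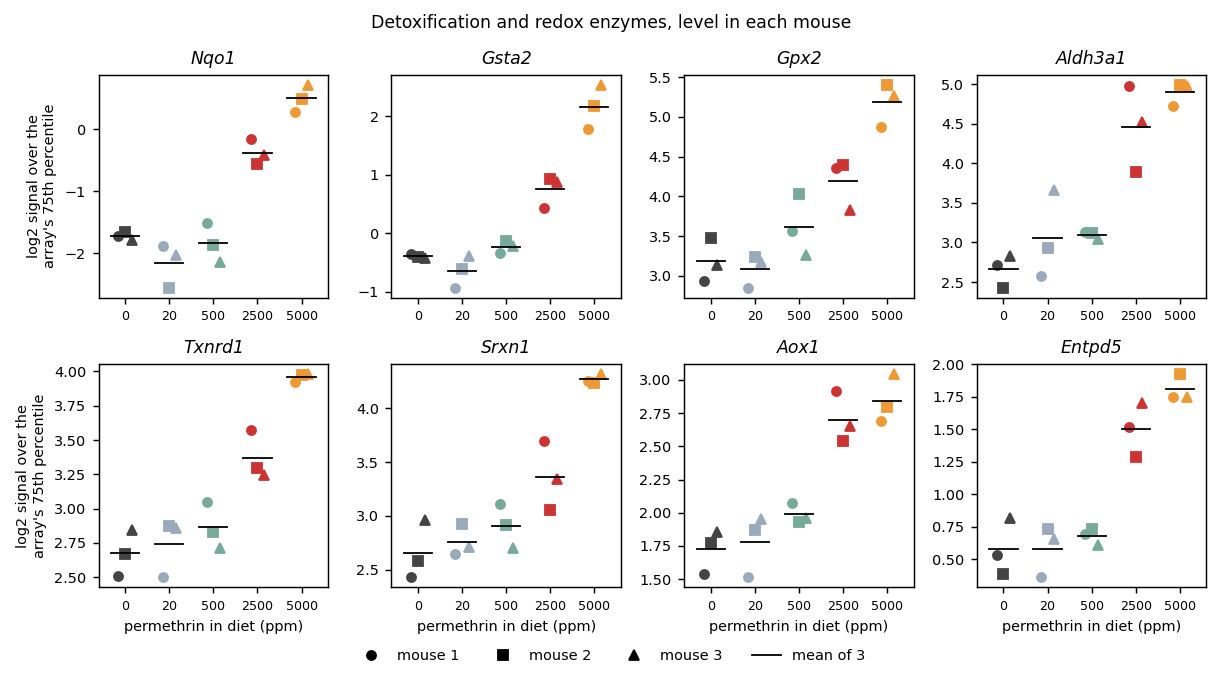
Each panel shows 1 gene, with the log2 level relative to the array's 75th percentile (vertical axis) in each mouse on diets with 0, 20, 500, 2500 and 5000 ppm permethrin (horizontal axis), marker shape giving the mouse number and the line the mean of 3. At 2500 ppm all 3 mice of these 8 enzymes lie above all controls, and for Nqo1, Gsta2, Gpx2, Txnrd1 and Srxn1 the 5000 ppm mice lie higher still.

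The list of Nrf2 targets and glutathione genes had 47 names, of which 45 were measured. In all 36 members were positive, where 57.1% of all features were, and the median was 0.31 against 0.05 for all features. At an unadjusted p under 0.05, 18 members were higher and 0 lower, where 5.68% and 3.05% of all features were. All 3 mice lay above all controls in 21 members and below them in 0, where 8.95% and 4.79% of all features did so. Besides the genes above, the 18 were Ces1g (1.38), Ugt1a6a (0.91), Gsta3 (0.72), Gstm3 (0.63), Gstm1 (0.62), Gss (0.60), Osgin1 (0.55), Cbr1 (0.48) and Pgd (0.31), with the log2 difference in parentheses. They encode a carboxylesterase, a glucuronosyltransferase, 3 glutathione S-transferases, glutathione synthetase, an oxidative stress induced growth inhibitor, a carbonyl reductase and an enzyme of the pentose phosphate pathway that supplies NADPH. A second probe of Gstm1 lay at -0.46, so its value depends on the probe. The count of 18 was 17 without 2500 ppm mouse 3, 16 without control mouse 1 and 10 with the array median as the scale. In the fit that blocks on slide it was 12, with a median of 0.40.

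Some members of the list did not follow. In all 9 were negative, the lowest at -1.02, though none was lower at an unadjusted p under 0.05. Hmox1, the inducible haem oxygenase, measured 2.28, 2.17 and 2.47 in controls and 2.41, 2.49 and 2.02 at 2500 ppm. The groups overlapped fully, the difference was -0.00 ± 0.25, and its sign turned with the setting. Nfe2l2, which encodes Nrf2 itself, differed by 0.13 ± 0.17.

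By mouse, the list's median deviation from the control mean was -0.17, 0.06 and 0.16 in controls, 0.35, 0.27 and 0.35 at 2500 ppm, and 0.54, 0.61 and 0.66 at 5000 ppm. The 3 diets did not overlap on this summary. In the 20 ppm mice it was -0.27, 0.06 and 0.16 and at 500 ppm 0.17, 0.18 and 0.08.

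Lists that overlap with this one leaned the same way. Of 20 measured CAR and PXR targets, 5 were higher and 0 lower at p under 0.05 (median 0.39), namely Gsta2, Gstm1, Gstm3, Aldh1a1 and Abcc3. The first 3 also belong to the Nrf2 list. Of all features 5.68% were higher and 3.05% lower at that p. With the array median as the scale 1 target was higher and 1 lower. Aldh1a1, a retinal dehydrogenase of club cells, was 0.69 ± 0.22 higher, and Abcc3, an exporter of conjugates, 0.52 ± 0.18. Cyp2b10, the usual marker of CAR, measured 6.20, 6.73 and 6.88 in controls and 7.03, 6.82 and 7.09 at 2500 ppm. These ranges overlapped (0.37 ± 0.24), and another probe of the gene lay at -0.48. Without mouse 3 the median of the CAR and PXR list was 0.19.

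Of 29 lung phase I enzymes 4 were higher and 0 lower at p under 0.05 (median 0.29, and 0.15 without mouse 3). Of all features 5.68% were higher and 3.05% lower. The 4 enzymes were Ces1g, Aox1, Aldh1a1 and Aldh1a7. The club cell monooxygenase Cyp2f2 differed by 0.10 ± 0.20, and its sign turned without mouse 3. Among 10 aryl hydrocarbon receptor targets, Nqo1, Aldh3a1 and Ugt1a6a were higher and Cyp1a1 was lower at that p, beside the same shares of all features. The 3 higher ones also belong to the Nrf2 list. Cyp1a1, the classic gene of that receptor, measured -0.99, -1.51 and -1.13 in controls and -1.08, -3.17 and -2.67 at 2500 ppm. Mouse 1 stayed among the controls while mice 2 and 3 lay more than 1 unit below them (-1.09 ± 0.42, adjusted p = 0.444).

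Outside these enzymes, Lncpint, a long noncoding RNA induced by p53, stood out by its shape over diets. It measured 1.11, 1.55 and 1.58 in controls, 2.52, 2.34 and 2.47 at 2500 ppm, and 1.78, 1.5 and 1.41 at 5000 ppm. The 2500 ppm mice lay above all other mice of the series, and the 5000 ppm mice lay near the controls on the same slide as the 2500 ppm mice. The difference from control was 1.03 ± 0.16 (adjusted p = 0.102) and that of 5000 from 2500 ppm was -0.88 (adjusted p = 0.56). A second Lncpint probe gave 0.31. Of the other measured p53 targets none had a p under 0.05.

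Stxbp4, a syntaxin binding protein, had the same shape. Its level was -3.25, -3.19 and -2.99 in controls, -2.0, -2.02 and -2.40 at 2500 ppm and -2.77, -3.12 and -2.91 at 5000 ppm. The 2500 ppm mice were again the 3 highest of the series (1.0 ± 0.17, adjusted p = 0.102, and 0.0346 without mouse 3). A second Stxbp4 probe gave 0.20, and the mean of the probes 0.60. Cdh1, the epithelial cadherin, measured 2.0, 1.48 and 1.36 in controls and 3.01, 2.90 and 2.28 at 2500 ppm. Its 20 ppm mice were also above all controls, at 2.22, 2.44 and 2.35. The difference from control was 1.12 ± 0.22 and that from 20 ppm 0.39. Slc6a2, the noradrenaline transporter, was 1.57 ± 0.33 above control but -0.02 from 20 ppm, with control mice at -1.40, -1.44 and -1.79 and 20 ppm mice at 0.27, 0.01 and -0.16. All mice on a permethrin diet lay above all controls.

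On the lower side, Ltb4r2, a receptor for leukotriene B4 and related lipids, measured -1.75, -2.08 and -2.0 in controls, -3.42, -3.83 and -4.03 at 2500 ppm and -2.66, -2.66 and -2.92 at 5000 ppm. The 2500 ppm mice were the lowest of the series. The difference was -1.82 ± 0.29 (control 3.52-fold over 2500 ppm, adjusted p = 0.102). At 500 ppm mice 1 and 2, on slide 1, measured -1.92 and -2.02, and mouse 3, on slide 2, measured -3.01. With slide as a fixed block the difference was -0.78 (adjusted p = 0.27), and with normexp background correction it was -0.73. Of 12 leukotriene pathway members 2 were lower at p under 0.05 and 0 higher, where 3.05% and 5.68% of all features were. Their median was -0.04.

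Nmur1, a neuromedin U receptor, measured -1.80, -2.31 and -2.69 in controls and -4.46, -4.80 and -3.13 at 2500 ppm. Mouse 3 stood between the other treated mice and the controls. The difference was -1.86 ± 0.36, and without mouse 3 it was -2.36 and passed (adjusted p = 0.00992), while normexp gave -0.55. Cwc22, a splicing factor, measured 2.57, 2.05 and 1.47 in controls, 3.46, 1.96 and 2.92 at 20 ppm and -0.83, -0.91 and -0.61 at 2500 ppm. It was low as well in all 500 ppm mice (-0.69, -0.69 and -0.43) and in 2 of 3 at 5000 ppm (-0.56, -0.54 and 1.13). The difference was -2.82 ± 0.46 (control 7.05-fold over 2500 ppm, adjusted p = 0.102), and its 3 probes ran from -2.82 to -1.11. Slc2a9, a urate transporter, was -0.88 ± 0.18 from control, with treated mice at -0.85, -0.91 and -0.78 against -0.15, 0.28 and -0.04.

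**Figure D3:**
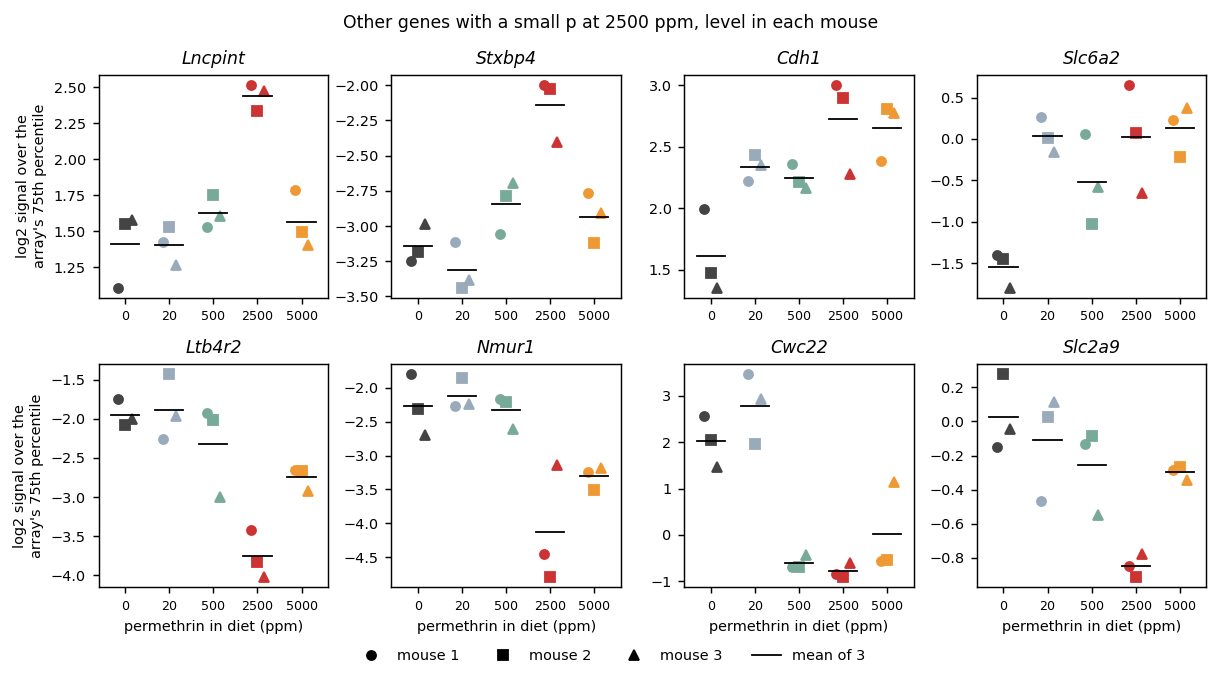
Each panel shows 1 gene, with the log2 level relative to the array's 75th percentile (vertical axis) in each mouse by ppm permethrin in the diet (horizontal axis), marker shape giving the mouse number and the line the mean of 3. Lncpint and Stxbp4 peak at 2500 ppm, Ltb4r2 and Nmur1 are lowest there, and Slc6a2 is lower in the controls than in any other diet.

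The rule for naming genes took 12 in each direction. The others on the higher side were Armc2 (0.80 ± 0.16), an armadillo repeat protein, Cacnb2 (0.70 ± 0.14), a calcium channel subunit, and Plxna3 (0.92 ± 0.19), a semaphorin receptor with a second probe at -0.49. On the lower side Lcn6, a lipocalin, differed by -0.66 ± 0.12. Rph3a, a vesicle protein, differed by -1.82 ± 0.38, and the antisense RNA Dhrs13os by -1.71 ± 0.37 with a second probe at 0.36. Rph3a was well above background on 2 of 3 treated arrays. Zfp92, a zinc finger protein, differed by -1.02 ± 0.21 (-0.03 with normexp), was well above background on no treated array, and control was at least 1.32-fold higher. That bound sets the control mean against, on each treated array, the higher of the lowest signal well above background and the probe's own signal.

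The remaining lower genes were olfactory receptors, Olfr1280 (-0.99 ± 0.17), Olfr577 (-0.97 ± 0.18), Olfr1200 (-1.67 ± 0.32) and Olfr671 (-1.0 ± 0.21). They were dim, and well above background on 1, 2, 1 and 2 of the 3 treated arrays in that order. Chosen after these values were seen, the 394 measured olfactory receptors had a median control level of -3.76, against -1.34 for all features. Of them 45 lay below and 3 above all controls, where 4.79% and 8.95% of all features did so. The median was -0.02, and at p under 0.05 there were 43 lower and 2 higher, where 3.05% and 5.68% of all features were. With normexp background correction these counts were 4 and 0 and the median was 0.12. Array weights gave 96 lower, and blocking on slide gave 203 lower with a median of -1.06.

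Leaving out 2500 ppm mouse 3 left 2 treated mice, and 62 features passed in limma (0.185%), 47 higher (0.14%) and 15 lower (0.0447%). Of the 62, 56 had no overlap with controls when mouse 3 was included, where 8.95% of all features lay above and 4.79% below. Mice 1 and 2 and the same controls chose the 62, so this count is a description. Besides Nmur1, Stxbp4 and Cdh1 those with an official symbol were Slc6a2 (1.91, adjusted p = 0.0424) on the higher side and, on the lower side, Olfr1200 (-2.01), Olfr74 (-0.83), Tmem52 (-1.14), Prrt3 (-2.16), Olfr611 (-2.12) and Rtp1 (-2.12). Olfr611 and Rtp1, a chaperone of olfactory receptors, were well above background on no treated array, and over all 3 mice control was at least 1.24-fold higher for each, while normexp gave -0.04 and -0.03. Prrt3 was well above background on 1 treated array. In Tmem52 mouse 3 lay above all controls at -3.13, so the call rests on mice 1 and 2, and a second probe lay on the other side (0.74, and 0.02 for the mean of both). The other 4 with a symbol have provisional names, Gm40091, Gm14812 and Gm31493 (-1.09) on the lower side and 9530091C08Rik (1.70) on the higher side. Gm40091 and Gm14812 were well above background on no treated array.

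Most of the 62 had no symbol. These 48 included 43 of the 47 higher ones, and the files name them mainly as cDNA clones (21 of 48), Ensembl transcripts (11) or coordinates (10). Since mice 1 and 2 chose them, their levels there are a description. The 3 control mice chose them too, so setting mouse 3 against these controls is a description as well. Mouse 3 lay above all controls in 40 of 43, where it did so for 13974 of all 33520 features, and below both other treated mice in 43. Their median difference from the control mean was 1.43, 1.37 and 0.57 in 2500 ppm mice 1 to 3 and 0.41, 0.19 and 0.06 in the 5000 ppm mice on the same slide. At 20 and 500 ppm it ran from 0.22 to 0.43.

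A transcript on chr3:51804655-51805883 (mm9, per the file headers) shows the pattern with the smallest p. It measured -2.07, -1.45 and -1.58 in controls, 0.08, -0.02 and -0.65 at 2500 ppm and -0.86, -0.87 and -1.05 at 5000 ppm. All treated mice lay above all controls and mouse 3 was the lowest at 2500 ppm. The difference was 1.51 ± 0.20 (adjusted p = 0.102) with mouse 3 and 1.73 (adjusted p = 0.00992) without it. A second on chr5:111565658-111566257 measured -2.20, -1.91 and -1.76 against 0.04, -0.21 and -1.12, and 1 on chr6:31078802-31079644 measured 2.49, 2.90 and 2.91 against 4.04, 3.98 and 3.49. Both repeat the order with mouse 3 nearest the controls.

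**Figure D4:**
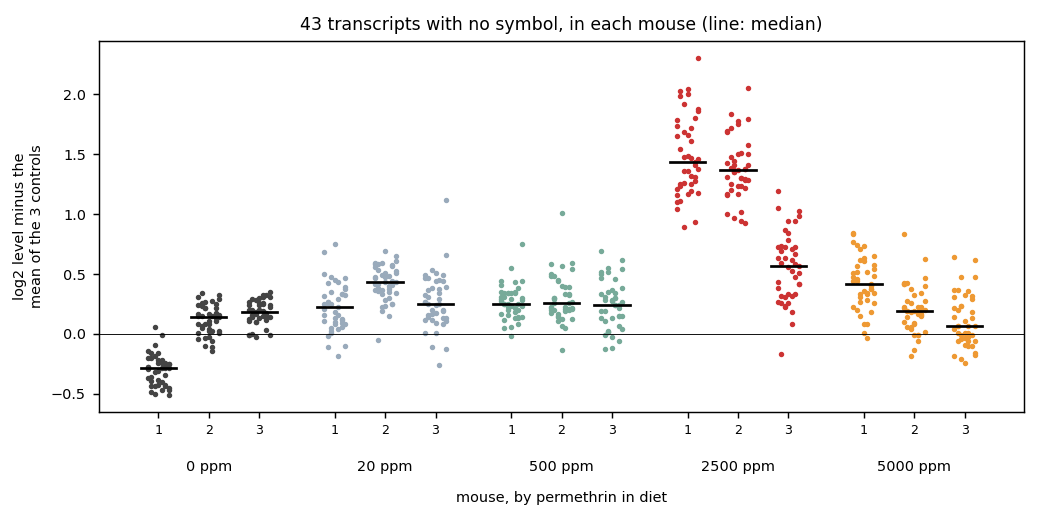
Each point is 1 of the 43 transcripts without a symbol that were higher when 2500 ppm mouse 3 was left out, by its log2 level minus the mean of the 3 controls (vertical axis) in each of the 15 mice, grouped by ppm permethrin in the diet (horizontal axis), with a line at the median. The medians of 2500 ppm mice 1 and 2 are 1.43 and 1.37, that of mouse 3 is 0.57, and those of the 5000 ppm mice are 0.06 to 0.41.

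Markers of lymphoid and antigen-presenting cells leaned lower at 2500 ppm. Alveolar macrophage markers did so too, with a median of -0.20 (16 of 21 negative, 0 past an unadjusted p under 0.05). Other immune lists lay nearer 0. The medians were -0.05 for neutrophil markers (0 of 20 past an unadjusted p under 0.05), -0.03 for interstitial macrophage and monocyte markers (2 of 21 higher and 4 lower) and -0.09 for eosinophil, mast cell and type 2 genes (1 of 21 higher). Of 22 measured NK and cytotoxic cell markers, 5 were lower and 1 higher at p under 0.05, where 3.05% and 5.68% of all features were. In 9 all 3 mice lay below all controls and in 1 above, where 4.79% and 8.95% of all features did so. The same shares hold for the lists below. The median of the NK list was -0.46. Its 5 lower members were Ccl5 (-0.78), a chemokine, Prf1 (-0.65), perforin, Klra9 (-0.49), an NK receptor, Xcl1 (-0.49), a chemokine, and Il2rb (-0.42), a cytokine receptor chain. Itga2, an integrin that other cells carry too, was the higher one (0.93). By mouse the list's median deviation was 0.09, -0.18 and 0.09 in controls, -0.59, -0.21 and -0.64 at 2500 ppm and -0.10, -0.02 and 0.02 at 5000 ppm. The 5000 ppm mice lay within the range of the controls. The median at 20 ppm mouse 1 was -0.90, so the spread within a diet can be as large. Without control mouse 1, 0 members were lower and 1 was higher at p under 0.05, and without 2500 ppm mouse 3 it was 3 and 1. With the array median as the scale it was 1 and 1.

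The antigen-presenting genes gave a median of -0.35 over 19 members, with 3 lower and 0 higher at p under 0.05. Cd74, the invariant chain, measured 5.67, 5.65 and 5.27 in controls and 4.86, 4.70 and 4.98 at 2500 ppm. The groups did not overlap (-0.68 ± 0.18, adjusted p = 0.244). H2-Ab1, an MHC class II chain, differed by -0.42 and Fscn1, an actin bundler of mature dendritic cells, by -0.77. B cell and plasma cell markers had a median of -0.40 (2 of 21 lower, Cxcr5 at -0.99 and Fcmr at -0.96), and by mouse -0.77, -0.31 and -0.03. Without control mouse 1, 0 B cell markers were lower at that p. T cell markers had a median of -0.26 (2 of 24 lower, Cd27 at -0.99 and Tcf7 at -0.32, the latter at an unadjusted limma p of 0.0495). The 20 ppm mice against the same controls had medians of -0.28 for T cell, -0.24 for B cell, -0.12 for NK and -0.07 for antigen-presenting genes. For 2500 minus 20 ppm the medians were 0.04, -0.14, -0.26 and -0.14 in that order. There 0 T cell, B cell or NK members and 3 antigen-presenting ones were lower at p under 0.05.

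Alveolar type 2 markers leaned lower in part. Of 23 measured, 20 were negative, 4 were lower and 0 higher at p under 0.05, and the median was -0.26. The 4 were Lyz2 (-1.39), a lysozyme of macrophages too, Egfl6 (-0.82), an extracellular matrix protein, Cd74, which dendritic cells share, and Sftpa1 (-0.34), a surfactant protein. Lyz2 was -0.53 without control mouse 1. Sftpc, the defining marker, differed by -0.03.

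Markers of ciliated and smooth muscle cells leaned higher, while club cell markers did not stand apart. Of 23 club cell markers 13 were positive, with a median of 0.10 (-0.05 without mouse 3). Of 26 ciliated cell markers 7 were higher and 0 lower at p under 0.05, with a median of 0.32. Dnah11 (0.75), Ccdc39 (0.58), Cfap126 (0.53), Cdhr3 (0.53), Dnaic1 (0.51), Meig1 (0.48) and Mcidas (0.48) made up the 7, most of them parts of the ciliary axoneme. By mouse the list stood at 0.21, 0.15 and 0.66 at 2500 ppm, with mouse 3 the highest, and without mouse 3 the count was 1 and the median 0.17. Without control mouse 1 the count was 3. Foxj1, the transcription factor of ciliated cells, differed by 0.19 ± 0.30, and its sign turned without mouse 3.

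Smooth muscle and pericyte markers had 5 of 20 higher and 0 lower at p under 0.05, where 5.68% and 3.05% of all features were. Without mouse 3 the counts were 3 and 1. The median was 0.21, but that of the 20 ppm mice against the same controls was 0.27. For 2500 minus 20 ppm the median was 0.02, with 2 members higher and 1 lower at that p. Acta2, smooth muscle actin, measured 4.23, 3.92 and 4.10 in controls and 5.40, 4.92 and 6.19 at 2500 ppm. Cnn1, calponin, measured 3.41, 3.13 and 3.1 against 4.6, 4.30 and 5.78. In both, mouse 3 was the highest of the series. The differences were 1.42 ± 0.33 and 1.68 ± 0.42 (1.08 and 1.24 without mouse 3), while another Acta2 probe lay at -0.51. Lmod1, a leiomodin, Cspg4, a pericyte proteoglycan, and Myocd, which drives smooth muscle genes, differed by 1.02, 0.57 and 0.89. Genes of cardiac muscle, which a lung sample can carry, had medians of 0.24, -1.28 and 1.75 in the 2500 ppm mice and 0.52, -1.04 and 0.46 in controls. Mouse 3 was therefore also the highest for heart genes, and their part in the smooth muscle values was not tested.

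**Figure D5:**
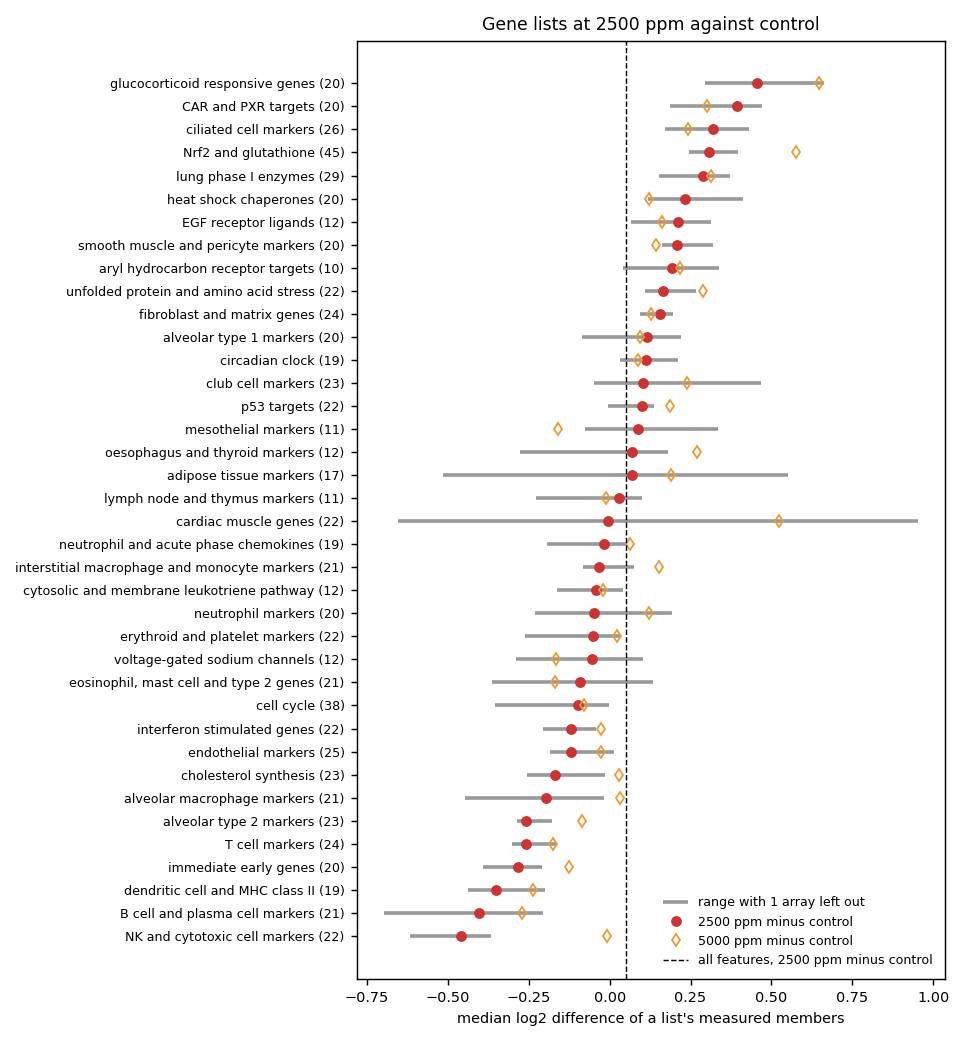
Each line is 1 of 38 gene lists, with the number of measured members in parentheses, and the horizontal axis gives the median log2 difference of the members. Red points are 2500 ppm minus control, grey bars their range with 1 array left out, open diamonds 5000 ppm minus control from the same control mice, and the dashed line the median of all features (0.05). The Nrf2 and glutathione list runs from 0.25 to 0.40 with 1 array left out and lies at 0.58 at 5000 ppm, and the NK list is the lowest at 2500 ppm.

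Stress and signalling lists differed in size. Of 22 genes of the unfolded protein and amino acid response 4 were higher and 0 lower at p under 0.05 (median 0.16). Of all features 5.68% were higher and 3.05% lower. Hspa5, the chaperone of the endoplasmic reticulum, differed by 0.67 ± 0.20, Trib3 by 0.97, Creld2 by 0.55 and Pdia6 by 0.38. Other Hspa5 probes gave 0.32 and 0.06. The count of 4 was 1 without control mouse 1 and 2 with the array median as the scale. Glucocorticoid responsive genes had the highest median of the 38 lists, 0.46 with 18 of 20 positive, with Hif3a at 1.38 ± 0.41 and Tsc22d3 at 0.82 ± 0.32, but the median of the 20 ppm mice against the same controls was 0.46 as well. Of 38 cell cycle genes 1 was lower and 0 higher, near the share of all features, and Mki67, the proliferation marker, differed by -0.23 ± 0.28. Cxcl5, a neutrophil chemokine, was 2.01 ± 0.44 higher (adjusted p = 0.158) with treated mice at 0.95, 0.45 and 0.05 against -1.37, -2.54 and -0.67. Il6 was -1.76 ± 0.52 and measured above background on 2 of 3 treated arrays. Of 19 neutrophil and acute phase chemokines these were the 1 higher and 1 lower at p under 0.05 (median -0.02). Bgn, a matrix proteoglycan, was -0.97 ± 0.21, with treated mice at 0.01, 0.07 and 0.09 against 1.45, 0.88 and 0.74. With slide as a fixed block Bgn was -0.38. It was the 1 lower of 24 fibroblast and matrix genes at that p, where 2 were higher and the median was 0.16. Of 12 voltage-gated sodium channel genes, the family that permethrin acts on, 1 was lower (Scn8a, -0.49 ± 0.18), where 3.05% of all features were. The other 2 Scn8a probes lay at 0.15 and 0.13, and the mean of its probes was -0.07.

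The comparison of 5000 with 2500 ppm, both on slide 2, asked where the next diet differed. In limma 0 features (0%) passed, with a lowest adjusted p of 0.237, and 5.13% had an unadjusted p under 0.05, 598 higher and 1123 lower. Gsta2 had the largest step among the enzymes, from 0.44, 0.93 and 0.88 at 2500 ppm to 1.79, 2.17 and 2.54 at 5000 ppm (1.42, adjusted p = 0.24). Nqo1 stepped by 0.88 (adjusted p = 0.65), Gpx2 by 0.99, Srxn1 by 0.91 and Txnrd1 by 0.59. Aldh3a1, Aox1 and Entpd5 differed by 0.44, 0.14 and 0.30. Over the Nrf2 and glutathione list 43 of 45 members were higher at 5000 than at 2500 ppm, 14 of them at p under 0.05 and 0 lower, with a median of 0.37. The same features gave 14 calls for 5000 ppm against control, a comparison that shares the control mice.

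The rule also named, on the higher side of that comparison, Dubr, a long noncoding RNA (0.78), Rbm45, an RNA binding protein (0.89), and Chmp6, a subunit of the ESCRT machinery (0.68). Lower at 5000 than at 2500 ppm were Olfr612 (-1.42), Olfr1225 (-0.89), Lncpint, Stxbp4 (-0.79) and Ccdc150 (-0.81), a coiled-coil protein. The adjusted p of these 8 ran from 0.51 to 0.67. Against control at 2500 ppm, Dubr stood at -0.15, Rbm45 at 0.05, Olfr612 at 0.18, Olfr1225 at -0.06 and Ccdc150 at 0.27, none of them separated from the control mice.

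The comparison of 2500 with 20 ppm set the same treated mice against other mice on slide 1. In limma 0 features (0%) passed, 8.28% had an unadjusted p under 0.05, 1809 higher and 966 lower, and the lowest adjusted p was 0.0523. That was Nqo1, at -1.89, -2.55 and -2.03 in the 20 ppm mice and 1.77 higher at 2500 ppm. Of the Nrf2 and glutathione list 18 members were higher and 0 lower at p under 0.05. Gsta2 was 1.39 higher (adjusted p = 0.086), Lncpint 1.04 higher, Ltb4r2 -1.87 and Cwc22 -3.57. Cdh1, Slc6a2 and Cacnb2 differed by 0.39, -0.02 and 0.23.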

How the data were processed

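Lung RNA of each mouse was hybridised to a 1-colour Agilent array. The deposited intensity values are processed signals from Feature Extraction 10.7.3.1, already background-subtracted and not scaled between arrays, per the file headers, which place probes on mm9. The deposited log2 table equals log2 of the same signals shifted by 1 constant per array and was used as an alternative.

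Spots marked as outliers were left out, spots of 1 probe were averaged, and log2 values were scaled to the array's 75th percentile. Probes well above background in at least 50% of their spots on all arrays of control or of 2500 ppm were kept, and for each symbol the probe with the highest mean was used. Symbols were updated through the RefSeq table of GRCm38.p6.

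All 15 arrays entered 1 limma fit (limma 3.58.1, R 4.3.3, lmFit and eBayes) with 1 coefficient per diet and 10 residual degrees of freedom, and p-values were adjusted by Benjamini-Hochberg over 33520 features at a threshold of 0.05. Each ± in the report is a standard error of a difference between 3 and 3 mice from this fit, p-values are two-sided, and the number of arrays limits the precision. The test was checked on simulated data. Gene lists are described by counts and medians with no test.

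Named by rule were the 12 genes with an official symbol and the smallest p in each direction whose groups did not overlap, the 2 leading members of each list, fixed enzymes and markers, up to 10 symbols with the smallest p without 2500 ppm mouse 3, and 5 in each direction at 5000 against 2500 ppm. Other list members at p under 0.05 and Bgn were named after their values were seen. The members and lists were chosen with earlier results of these data known. Alternatives covered background, scaling, filter, probe choice, slide and replicate blocks, array weights and left-out arrays, some chosen after seeing the data.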

Additional observations from a re-analysis of the deposited data

Results flagged for a closer look

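Chmp6, an ESCRT subunit, lay on opposite sides of the controls at 2500 and 5000 ppm. Its level was 1.0, 1.02 and 1.04 in the control mice, 0.71, 0.60 and 0.34 at 2500 ppm and 1.27, 1.16 and 1.26 at 5000 ppm. The difference from control was -0.47 ± 0.14 at 2500 ppm and 0.21 at 5000 ppm, with the same controls in both, and 5000 minus 2500 ppm was 0.68 (limma, adjusted p = 0.565). Whether the 2 effects differ was therefore not called after adjustment. Of 33520 features, 49 lay on opposite sides in every mouse, and Chmp6 was the one among the named genes.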

How the results depend on the processing

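The count of called genes at 2500 ppm against control, 0 as reported, stayed 0 under quantile normalization, the deposited table, no filter, the 2 other filters, every probe, the mean of probes, slide as a random block (lowest adjusted p 0.761) and without control mouse 1 and 20 ppm mouse 1 together. It was 1 with normexp, 6 with the array median, 4 with only the 6 arrays, 5 with trend and robust settings, 1070 with array weights (543 higher and 527 lower), 146 without both mouse 3 arrays of 500 and 2500 ppm, and 3 with only the 5 arrays that leave out 2500 ppm mouse 3. It was 4845 with slide as a fixed block (105 higher and 4740 lower), which rests on the outlying array of 500 ppm mouse 3. With 1 array left out it ran from 0 to 62, the highest without 2500 ppm mouse 3, and no other array gave more than 2. Unadjusted counts higher and lower were 1903 and 1022 as reported, 2060 and 592 with normexp, 647 and 7461 with the fixed slide block, and 928 and 992 without control mouse 1, and the fixed block moved the median of all features to -0.13.

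The count of called genes at 5000 ppm against 2500 ppm became 1 with normexp, 709 with array weights, 11 without both mouse 3 arrays and 0 to 9 with 1 array left out. The count of called genes at 2500 ppm against 20 ppm became 8 with normexp, 12 with the array median, 3 with the filter on all 15 arrays, 3625 with the fixed slide block, 9 with trend and robust settings, 2211 with array weights, 25 without both mouse 3 arrays, 11 without control mouse 1 and 20 ppm mouse 1, and 0 to 12 with 1 array left out. A replicate block gave 2, 1 and 3 calls in the order of the comparisons above. Mice of the same number in control and 2500 ppm did not deviate together (r of -0.03, 0.04 and -0.14). Control mouse 1 and 20 ppm mouse 1 lay on the same side of the second principal component (-86.0 and -77.1). Whether the numbers pair mice across the other diets was not tested.

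Some differences, small but for Tmem52, changed sign, and the cause was not tested. With the mean of a gene's probes Ager was -0.075, Cyp2b10 -0.051 and Tmem52 0.020. With array weights Ager was -0.022, Cyp2f2 -0.095, Scgb1a1 -0.052, Hmox1 0.12 and Olfr1225 0.018. With the fixed slide block Ccdc150 was -0.070, Hmox1 0.82, Olfr1225 0.56 and Sftpc 0.0054, and with the random block Hmox1 was 0.25 and Olfr1225 0.13. With normexp Hmox1 was 0.031 and Olfr1225 0.12, and with quantile normalization Scgb1a1 was -0.035. Without both mouse 3 arrays, and with only the 5 arrays, Cyp2f2 was -0.043, Foxj1 -0.071, Scgb1a1 -0.011 and Hmox1 0.14. Without control mouse 1 and 20 ppm mouse 1 Ager was -0.057, Olfr1225 0.034 and Rbm45 -0.083. With 1 array left out the ranges were -0.057 to 0.31 for Ager, -0.043 to 0.22 for Cyp2f2, -0.071 to 0.49 for Foxj1, -0.092 to 0.14 for Hmox1, -0.20 to 0.034 for Olfr1225, -0.083 to 0.17 for Rbm45, -0.011 to 0.27 for Scgb1a1 and -0.17 to 0.053 for Sftpc. Normexp used median signals. It brought dim genes toward 0, as in Olfr611 (-0.04), Rtp1 (-0.03), Zfp92 (-0.03) and Olfr1280 (-0.08). The fixed slide block turned the medians of immediate early genes (0.23), cholesterol synthesis (0.09) and interferon genes (0.31), alveolar macrophage (0.0065), lymph node and thymus (-0.18) and oesophagus and thyroid markers (-0.57).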

Other observations

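Several lists that no comparison above describes held members with all 3 mice on 1 side of the controls, and no member passed after adjustment. Of 20 immediate early genes 3 were lower and 0 higher at an unadjusted p under 0.05 (median -0.28). Junb, an AP-1 subunit, measured 5.24, 4.40 and 4.50 in controls and 4.29, 4.23 and 4.06 at 2500 ppm, and Ier2 measured 2.26, 1.38 and 1.31 against 1.15, 0.94 and 0.92. Control mouse 1 was the highest of the 6 for both genes, the count was 1 without it, and without 2500 ppm mouse 3 no member was past that p. Of 22 interferon stimulated genes 1 was lower and 0 higher, close to the 3.05% of all features lower at that p. That was Ifih1, a sensor of double-stranded RNA, at 0.66, 0.64 and 0.42 against 0.91, 1.14 and 1.25.

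Of 20 heat shock chaperones 2 were higher and 0 lower at that p (median 0.23), where 5.68% and 3.05% of all features were. Ahsa1, which activates the ATPase of Hsp90, measured 6.98, 6.71 and 6.78 at 2500 ppm and 6.19, 6.55 and 6.40 in controls, and Hspa4l differed by 0.50 ± 0.20. Of 23 genes of cholesterol synthesis 1 was lower and 0 higher, likewise close to that share, and it was Cyp51, at 0.39, 0.20 and 0.17 against 0.52, 0.50 and 0.77. A transcript without a symbol on chr5:149775338-149781472 (mm9, per the file headers) stood lower on both high diets, at -2.50, -2.39 and -2.39 at 2500 ppm and -2.61, -2.29 and -2.45 at 5000 ppm against -1.45, -1.56 and -1.69 in controls.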
